A study of Mus musculus with 16 samples.

Results

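Transcripts of 54 mouse cytochrome P450 genes were described in the non-tumour colon of 16 ApcMin/+ mice, which carry 1 inactivating copy of Apc and develop intestinal tumours. The genes were those whose name on the array has the form Cyp followed by a family number, a subfamily letter and a gene number, leaving out Cyp1a1 and Cyp1b1. Of 86 such names, 54 had a probe well above background on at least 4 arrays, and each gene is represented by its brightest such probe. The other 32 names did not pass, and 21 of these were above background on no array. Just inside the limit were Cyp27b1 and Cyp2a4, on 5 arrays each, and just outside it Cyp2a12, Cyp2j5 and Cyp3a59, on 3 each. Of the 54 members, 48 were above background on all 16 arrays.

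Cytochromes P450 are haem proteins that insert 1 atom of oxygen into their substrate, using electrons passed on by P450 oxidoreductase in the endoplasmic reticulum or by ferredoxin in mitochondria. Members of families 1 to 4 oxidise drugs, dietary compounds and fatty acids. Many Cyp2c and Cyp2j enzymes make epoxides of arachidonic acid, Cyp4a and Cyp4f enzymes hydroxylate the far end of fatty acids and leukotrienes, and Cyp3a enzymes act on steroids and many drugs. Members of the higher numbered families make or break down steroid hormones, vitamin D, retinoic acid and bile acids. In the gut wall, P450 enzymes lie mostly in the absorptive epithelium, the first tissue to meet swallowed compounds.

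The 4 Sham mice drank water alone. The 6 Control mice received dextran sulphate sodium (DSS, an irritant of the colon epithelium) at 1.5% in the drinking water for 3 days, with saline as the vehicle. The 6 5-ASA mice received the same DSS together with 5-aminosalicylic acid, a drug given to patients with ulcerative colitis. All tissue was taken at day 28, 1 array per mouse, and age, sex and strain background are not given in the sources used here. The labels disagree on the dosing: one field gives delivery into the colon for 28 days and another gives drug or plain water for 25 days after DSS, so route and duration stay unsettled here.

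Values are log2 signals minus the array's 75th percentile, so that 0 is the signal below which 75% of its probes lie, and a difference of 1 is a 2-fold change in signal. A level belongs to its own probe and is not set against that of another. Of the probe spots, 59.8 to 65.2% were above background on the 8 arrays in the upper row of the 2 slides and 53 to 57.7% on the 8 in the lower row. All Sham arrays lay in the upper row and all 5-ASA arrays in the lower, so that row and group cannot be told apart between them. All 11 colonocyte markers examined, Car1, Slc26a3 and Krt20 among them, were above background on every array. In bulk tissue, fewer cells of a type and less RNA per cell cannot be told apart.

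The largest subfamilies were Cyp2c with 12 members, Cyp2d with 9, Cyp4f with 6 and Cyp2j with 4, followed by Cyp3a and Cyp4a with 2 each. The other 19 members were the only one of their subfamily. Of the Cyp2c genes, 11 lie in 1 cluster, with probes over 1111 kb of chromosome 19 (mm9, chr19:39116674-40228028), and Cyp2c44, which RefSeq now calls Cyp2c23, lies apart at chr19:44079535-44079594. The 9 Cyp2d genes span 416 kb of chromosome 15 (chr15:82204377-82620634), and the 4 Cyp2j genes 523 kb of chromosome 4 (chr4:95712305-96235340). RefSeq matched 53 of the 54 probes by accession, 52 of them under the same symbol, and classes Cyp2d13 as a transcribed pseudogene.

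Because Cyp2c65 and Cyp2c66, and also Cyp2c67 and Cyp2c68, rose and fell together from mouse to mouse, the 250 bases before their RefSeq start sites are shown (GRCm38.p6). Capitals mark matches, on either strand, to TATAAA (the TATA box), GTTAAT (part of the HNF1 site), TTTATG (CDX), AGGTCA (1 repeat of nuclear receptor sites), CAAAGTCCA (a form of the HNF4 site) or TTGCGCAA (C/EBP). HNF1, HNF4 and CDX factors are transcription regulators of gut and liver epithelium. The 4 windows are chr19:39060756-39061005 on the plus strand, chr19:39113648-39113897 on the plus strand, chr19:39649043-39649292 on the minus strand and chr19:39741102-39741351 on the minus strand.
Cyp2c65: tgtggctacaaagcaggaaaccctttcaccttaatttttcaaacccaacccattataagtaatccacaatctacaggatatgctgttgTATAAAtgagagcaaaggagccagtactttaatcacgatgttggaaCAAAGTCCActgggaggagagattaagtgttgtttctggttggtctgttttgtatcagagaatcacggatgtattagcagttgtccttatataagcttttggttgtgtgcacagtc
Cyp2c66: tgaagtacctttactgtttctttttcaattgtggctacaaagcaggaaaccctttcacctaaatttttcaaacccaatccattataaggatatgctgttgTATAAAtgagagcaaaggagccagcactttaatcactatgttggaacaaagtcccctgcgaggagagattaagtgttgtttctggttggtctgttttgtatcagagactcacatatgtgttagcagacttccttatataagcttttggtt
Cyp2c67: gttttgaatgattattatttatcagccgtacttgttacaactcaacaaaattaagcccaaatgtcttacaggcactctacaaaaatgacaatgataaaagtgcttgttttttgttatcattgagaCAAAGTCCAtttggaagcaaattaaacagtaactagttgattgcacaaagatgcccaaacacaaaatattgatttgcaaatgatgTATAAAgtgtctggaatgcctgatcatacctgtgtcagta
Cyp2c68: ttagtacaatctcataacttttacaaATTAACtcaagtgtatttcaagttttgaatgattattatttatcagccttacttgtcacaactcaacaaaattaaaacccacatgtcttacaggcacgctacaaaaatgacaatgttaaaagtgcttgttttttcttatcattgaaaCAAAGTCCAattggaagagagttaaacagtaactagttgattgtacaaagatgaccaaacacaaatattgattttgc

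The windows of Cyp2c65 and Cyp2c66 were 94.1% identical over 221 aligned bases, and those of Cyp2c67 and Cyp2c68 93% over 201. The window of Cyp2c65 was 64.1% identical to that of Cyp2c67. Similar windows did not always go with a shared profile: Cyp2c38 and Cyp2c39 were 89.6% identical with r = 0.157 between their levels over the 16 mice, and Cyp2c29 and Cyp2c38 82% with r = -0.13. Cyp2c29 and Cyp2c39 were 82.3% identical with r = 0.84. Cyp2c39 has a window at chr19:39347096-39347345 and another at chr19:39510572-39510821, and the better match was used for each pair. Its identities to Cyp2c38 and Cyp2c29 may therefore concern different start sites. CAAAGTCCA was present in Cyp2c65, Cyp2c67 and Cyp2c68 above and in Cyp2c70, out of 10 Cyp2c genes with a window. It was in 5 of the 40 members with a window and in 0.384% of 32851 mouse windows of this length. A member was counted if any of its windows held a match, whereas the percentages are by window. TATAAA was present in 16 of the 40 members with a window and in 12.4% of all windows, AGGTCA in 6 against 14%, GTTAAT in 5 against 6.43% and TTTATG in 1 against 10.8%. TTGCGCAA was in none of the 40 and in 0.164% of all. A match is a description of the letters and not evidence of binding.

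Near-identical genes can share array signal, so the probes of tightly tied pairs were compared. Cyp2c37 and Cyp2c54 are shown as one such pair, and Cyp2d9 and Cyp2d12 as another, with the longest stretch shared within each pair, 6 bases, in capitals. Their mm9 positions are chr19:40084382-40084441, chr19:40144659-40144718, chr15:82285582-82285641 and chr15:82388259-82388501, the last spanning an intron.
Cyp2c37: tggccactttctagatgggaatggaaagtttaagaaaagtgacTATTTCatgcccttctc
Cyp2c54: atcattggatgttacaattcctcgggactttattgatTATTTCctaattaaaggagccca
Cyp2d9: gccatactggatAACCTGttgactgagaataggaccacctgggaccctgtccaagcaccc
Cyp2d12: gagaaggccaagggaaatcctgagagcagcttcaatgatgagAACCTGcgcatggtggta

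The probes differ because they read different places of the transcripts. Whether a probe also binds the transcript of a neighbouring copy was not tested, as no transcript sequences were at hand, so levels of single Cyp2c, Cyp2d, Cyp2j and Cyp4f genes remain uncertain to that extent.

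Members varied more from mouse to mouse than most genes. The median standard deviation over the 16 mice was 0.43 on the log2 scale, against 0.26 over all 24475 genes tested. A total of 5 members, or 9.26%, had a standard deviation above 1, against 3.91% of all genes. These were Cyp2e1 (2.09), Cyp2f2 (1.40), Cyp2c65 (1.17), Cyp2c66 (1.15) and Cyp26b1 (1.09).

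**Figure D1:**
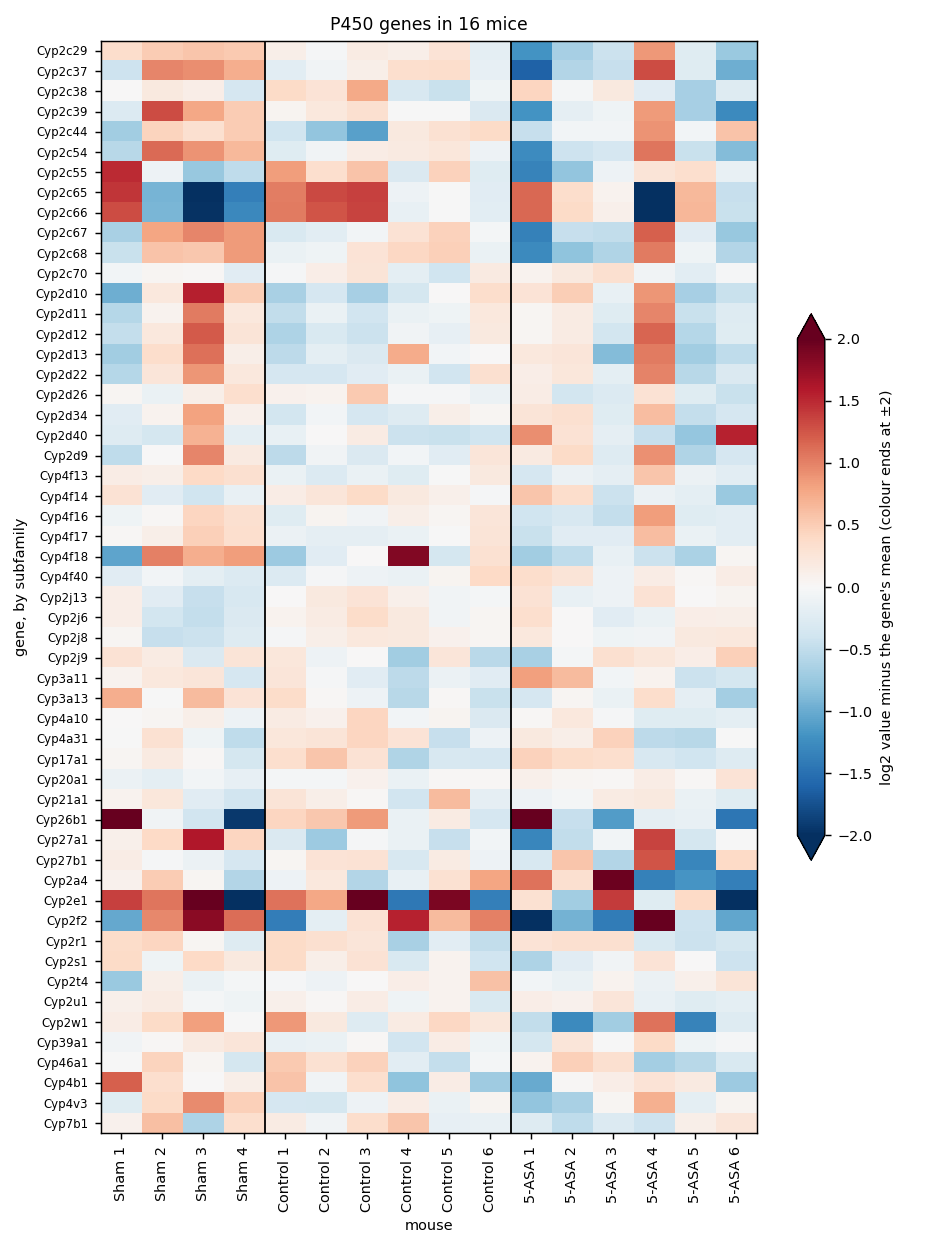
Log2 signal of each of the 54 P450 genes (rows, by subfamily) in each of the 16 mice (columns, by group), shown as the difference from the gene's mean over all mice, with the colour scale ending at 2 in both directions. Cyp2e1, Cyp2f2, Cyp2c65, Cyp2c66 and Cyp26b1, with standard deviations above 1, carry the strongest colours, and these do not follow the group borders.

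Cyp2c65 and Cyp2c66, neighbouring epoxygenase genes, showed 1 profile. Cyp2c65 read 3.23, 0.87, -0.22 and 0.44 in Sham 1 to 4. In Control mice its lowest, median and highest values were 1.57, 2.31 and 3.18, and in 5-ASA mice -0.41, 2.02 and 2.95. Sham 1 was the highest of all mice, 5-ASA 4 was the lowest, and the groups overlapped. Across the 16 mice Cyp2c66 followed it with r = 0.999 and rho = 0.997 (permutation test, adjusted p = 4.1e-05 and 7.69e-05 over 123 pairs within subfamilies). The correlation was 0.998 within slide 1, 0.999 within slide 2, and 0.999 without 5-ASA 4 and Sham 3. The longest stretch shared by their probes was 6 bases.

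The 6 cluster genes Cyp2c29, Cyp2c37, Cyp2c39, Cyp2c54, Cyp2c67 and Cyp2c68, formed a second profile, a grouping made after the values were seen. Cyp2c67 read 2.67, 4.09, 4.29 and 4.16 in Sham 1 to 4. Its lowest, median and highest values were 3.01, 3.26 and 3.77 in Control and 1.96, 2.83 and 4.51 in 5-ASA mice. Sham 1, the highest Sham mouse for Cyp2c65, was the lowest for Cyp2c67, and 5-ASA 4, the lowest of all for Cyp2c65, was the highest of all for Cyp2c67. All 15 pairs among the 6 genes passed the permutation test, with r from 0.789 to 0.982 and rho from 0.803 to 0.974 (largest adjusted p = 0.000772 and 0.00101). Without Sham 3 and 5-ASA 4, r ranged from 0.736 to 0.975, and it ranged from 0.76 to 0.998 within slide 1 and from 0.936 to 0.997 within slide 2.

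The 2 profiles opposed each other. Between Cyp2c65 or Cyp2c66 and the 6 genes, r ranged from -0.784 to -0.5, and 8 of the 12 pairs passed by r and 5 by rho. For Cyp2c65 with Cyp2c67, r was -0.779 and rho -0.676 (permutation test, adjusted p = 0.000963 and 0.0133). Without 5-ASA 4 and Sham 3, r was -0.625, and within slides 1 and 2 it was -0.595 and -0.76. Over all 12 pairs without those 2 mice, r ranged from -0.633 to -0.233, so part of the opposition rested on them. Within slide 1 it ranged from -0.634 to -0.132 (Cyp2c29 with Cyp2c65), and within slide 2 from -0.796 to -0.653.

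Cyp2c44, which lies outside the cluster, ran against Cyp2c65 more closely still. It read -4.03, -2.89, -3.01 and -2.82 in Sham 1 to 4, between -4.41 and -2.95 in Control mice and between -3.79 and -2.44 in 5-ASA mice. It was low where Cyp2c65 was high, with r = -0.884 and rho = -0.95 (permutation test, adjusted p = 4.1e-05 and 7.69e-05), -0.938 within slide 1 and -0.735 within slide 2. Cyp2c38 and Cyp2c70 formed a further positive pair, with r = 0.725 and rho = 0.741 (permutation test, adjusted p = 0.00356 and 0.00398), although r was 0.249 within slide 1 and 0.7 within slide 2.

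**Figure D2:**
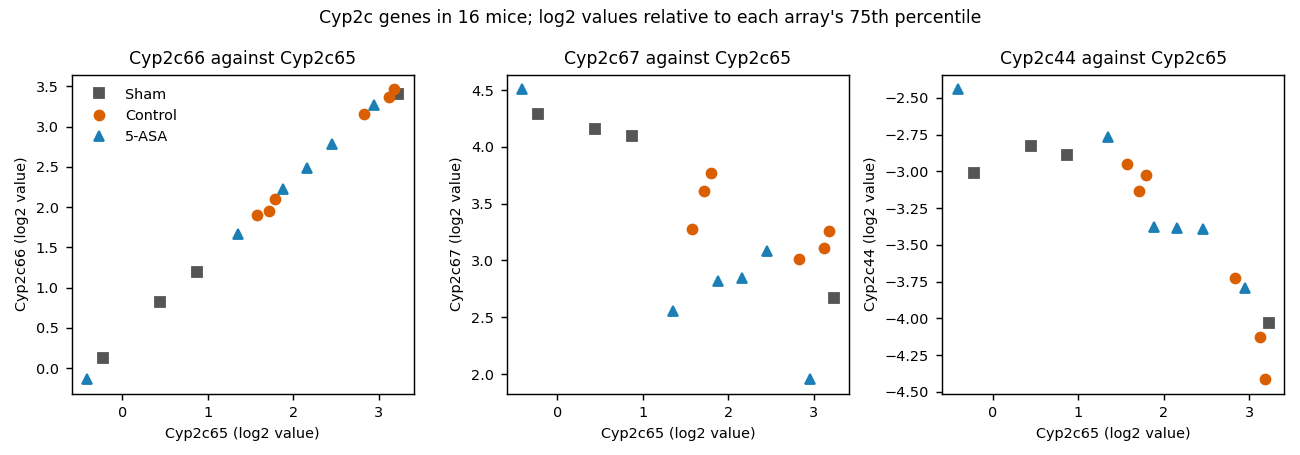
Log2 signal of Cyp2c66, Cyp2c67 and Cyp2c44 (vertical axes) against that of Cyp2c65 (horizontal axes) in the 16 mice, coloured by group. Cyp2c66 rises with Cyp2c65 along a line (r = 0.999), while Cyp2c67 (r = -0.779) and Cyp2c44 (r = -0.884) fall.

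Cyp2c55, which oxidises arachidonate at a carbon near its far end, passed with no other Cyp2c gene, its r ranging from -0.347 with Cyp2c44 to 0.447 with Cyp2c29. It read 6.99, 5.39, 4.74 and 4.99 in Sham 1 to 4. Lowest, median and highest values were 5.20, 5.89 and 6.32 in Control and 4.15, 5.37 and 5.82 in 5-ASA mice, so the 3 groups overlapped.

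Of the 9 Cyp2d genes, 7 moved as 1 block, also a grouping made after the values were seen. Cyp2d10 read 2.30, 3.49, 4.83 and 3.76 in Sham 1 to 4. In Control mice its lowest, median and highest values were 2.60, 2.92 and 3.62, and in 5-ASA mice 2.60, 3.33 and 4.16. Sham mice spanned the whole range, with Sham 1 lowest and Sham 3 highest. All 21 pairs among Cyp2d9, Cyp2d10, Cyp2d11, Cyp2d12, Cyp2d13, Cyp2d22 and Cyp2d34 passed, with r from 0.793 to 0.988 and rho from 0.676 to 0.971 (permutation test, largest adjusted p = 0.00082 and 0.0133). Without Sham 3 and 5-ASA 4, r still ranged from 0.603 to 0.967. Within slides 1 and 2 it ranged from 0.757 to 0.97 and from 0.765 to 0.997.

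Cyp2d26 and Cyp2d40, whose probes lie at the high-coordinate end of the cluster, did not share that pattern. Cyp2d26 read 2.76, 2.57, 2.82 and 3.04 in the Sham mice, between 2.60 and 3.23 in Control mice and between 2.27 and 3.00 in 5-ASA mice. None of their 14 pairs with the 7 genes passed by r or by rho, and r ranged from 0.0386 to 0.308. The slides differed in this. For Cyp2d26, r with the 7 genes ranged from -0.564 to -0.0958 within slide 1 and from 0.67 to 0.7 within slide 2. For Cyp2d40 it ranged from 0.345 to 0.591 within slide 1 and from -0.0532 to 0.129 within slide 2.

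**Figure D3:**
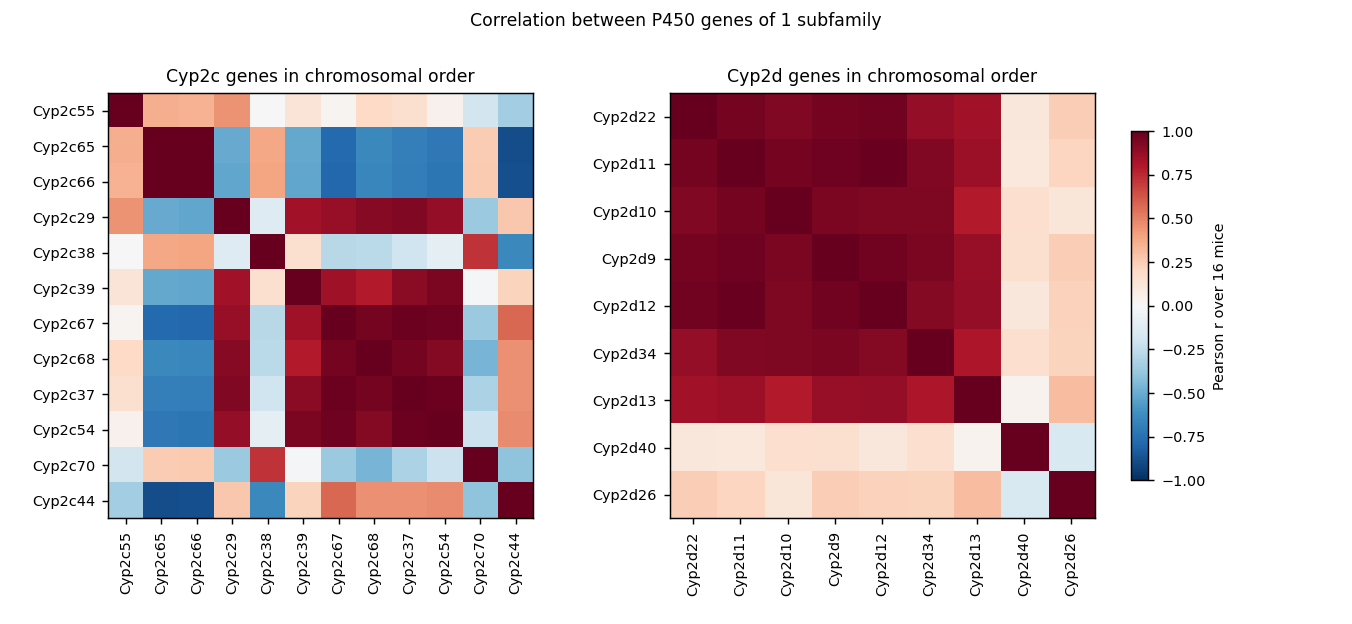
Pearson correlations over the 16 mice between the 12 Cyp2c genes and between the 9 Cyp2d genes, each ordered along its chromosome, on a colour scale from -1 to 1. The Cyp2c matrix holds positive blocks and negative blocks down to -0.884, and the Cyp2d matrix 1 positive block of 7 genes (0.793 to 0.988) beside Cyp2d26 and Cyp2d40.

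Over all 123 pairs within the 4 subfamilies, 81 correlations were positive and 42 negative, and 56 passed by r at an adjusted p of 0.05. Of these 56, 51 also passed by rho. Passing pairs numbered 29 of 66 in Cyp2c, 21 of 36 in Cyp2d, 3 of 6 in Cyp2j and 3 of 15 in Cyp4f, and all 11 negative ones were Cyp2c pairs. The smallest p that the 100000 permutations can give was 1e-05. Shares of passing pairs between subfamilies or among other genes were not computed, so these counts cannot be called particular to P450 subfamilies.

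Groupings in Cyp2j and Cyp4f were likewise made after the values were seen. The genes Cyp2j6, Cyp2j8 and Cyp2j13 rose and fell together, with r from 0.766 to 0.926 and rho from 0.697 to 0.903 (permutation test, largest adjusted p = 0.00136 and 0.0099). Cyp2j9, a gene of the same cluster, passed with none of them. Among the leukotriene and fatty acid hydroxylases, Cyp4f13, Cyp4f16 and Cyp4f17 formed a block with r from 0.826 to 0.971 and rho from 0.621 to 0.868 (permutation test, largest adjusted p = 0.00042 and 0.0323). Without 5-ASA 4 and Sham 3, r in that block ranged from 0.628 to 0.941. It ranged from 0.411 (Cyp4f13 with Cyp4f16) to 0.901 within slide 1 and from 0.895 to 0.99 within slide 2, and Cyp4f13, Cyp4f16 and Cyp4f17 had higher means on slide 2, by 0.23, 0.39 and 0.30 (unadjusted limma p under 0.05, adjusted p = 0.13, 0.0559 and 0.067).

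Between groups, the spread among mice was large beside the differences. In 1 limma model of the 3 groups over 24475 genes, with Benjamini-Hochberg adjustment over all of them, no member was called at an adjusted p of 0.05 in Control against Sham, 5-ASA against Control or 5-ASA against Sham. Calls among all genes were 0.0531%, 0% and 0.0531% in that order. The median standard error of a member's difference was 0.26, 0.23 and 0.26, and the median difference was -0.18, -0.09 and -0.15, against -0.0017, -0.0017 and -0.0033 over all genes. In Control against Sham 23 members were higher and 31 lower, in 5-ASA against Control 18 and 36, and in 5-ASA against Sham 16 and 38. With normexp background correction the second split was 24 and 30. Both comparisons with Sham share the 4 Sham mice.

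At an unadjusted p of 0.05, Control against Sham held 6 members, or 11.1%, against 8.87% of all genes. The count for 5-ASA against Control was 1 member, or 1.85%, against 4.09%. For 5-ASA against Sham it was 12 members, or 22.2%, against 10.9%. Those 3 counts moved with single mice: they were 15, 1 and 18 without Sham 1, 2, 1 and 6 without Sham 3, and 11, 10 and 20 without 5-ASA 4. They were 4, 0 and 0 with the slide row as a covariate. Shares of all genes under these settings were not counted, so the shifts cannot be called particular to P450 genes. Probes of 7 members had at least 1 spot in the outer 12 spot rows, Cyp2c29, Cyp27a1, Cyp2j13 and Cyp4f40 among them, and without those members the counts were 4, 1 and 9 of 47 members.

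**Figure D4:**
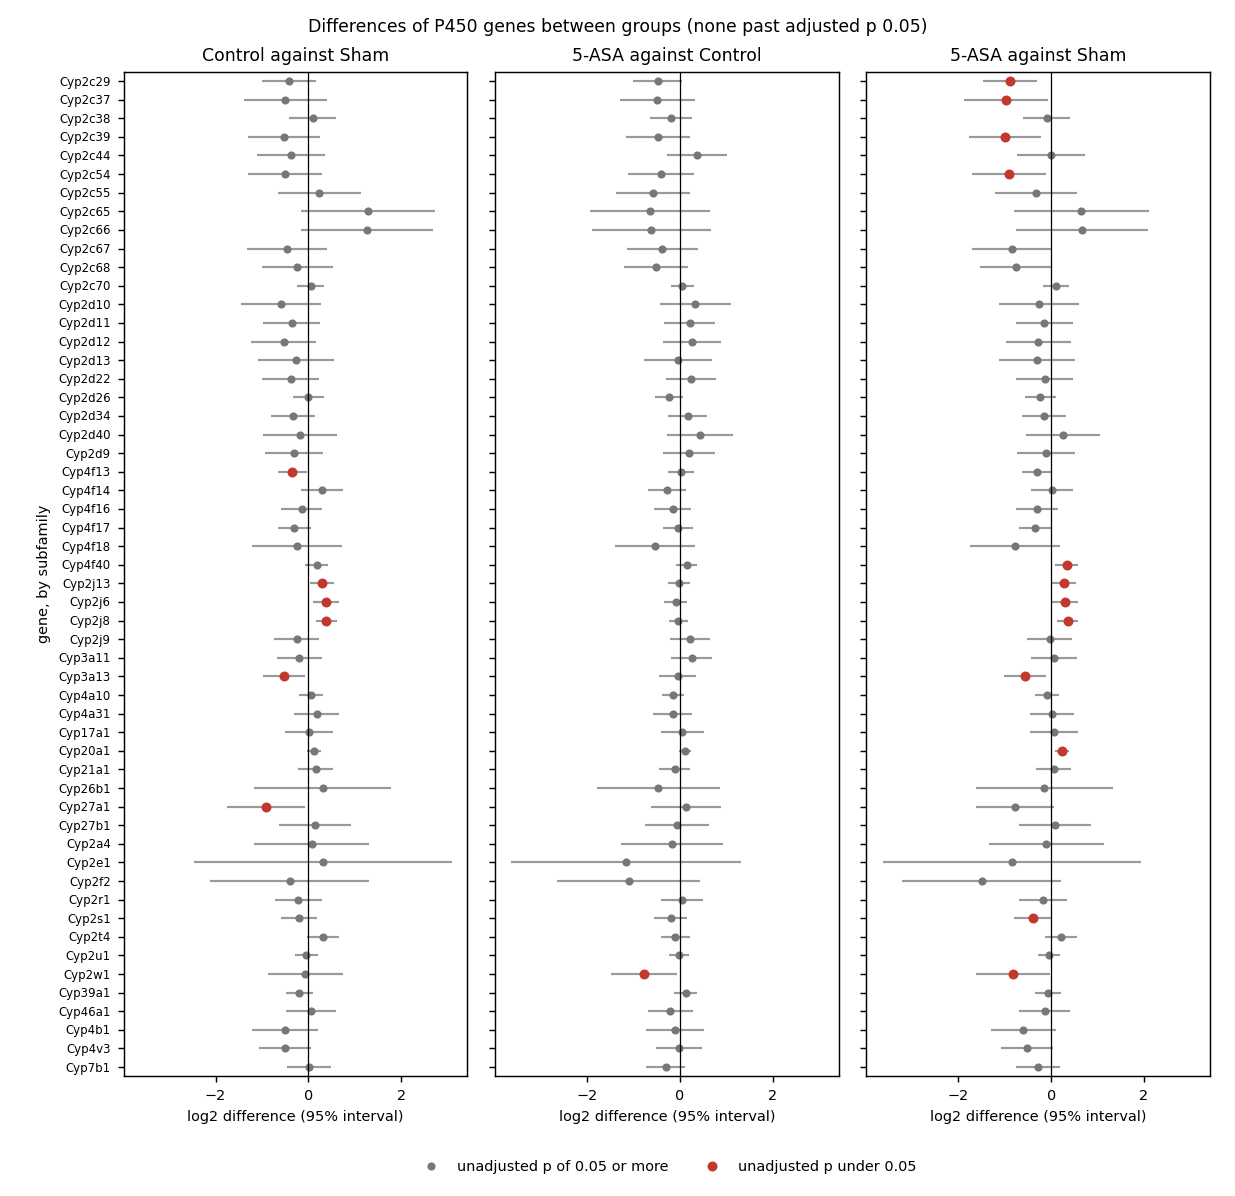
Difference in log2 signal with its 95% interval for each of the 54 members in Control against Sham, 5-ASA against Control and 5-ASA against Sham, red where the unadjusted limma p was under 0.05. The red points number 6, 1 and 12, and no member passed after adjustment.

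Cyp2j8 and Cyp2j6 had the smallest p in Control against Sham, followed by Cyp3a13, and Cyp2j13 was also among the 6 with an unadjusted p under 0.05. Cyp2j8 read 0.86, 0.36, 0.38 and 0.55 in Sham 1 to 4. Its lowest, median and highest values were 0.80, 0.92 and 1.04 in Control and 0.73, 0.92 and 1.03 in 5-ASA mice. Sham 2, 3 and 4 lay below every DSS-treated mouse and Sham 1 among them. The difference was 0.39 with a standard error of 0.10 in Control against Sham and 0.36 with 0.10 in 5-ASA against Sham (limma adjusted p = 0.561 and 0.339), and -0.03 with 0.09 in 5-ASA against Control (limma adjusted p = 0.999).

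Cyp2j6 had the same layout, with 0.96, 0.47, 0.36 and 0.54 in Sham 1 to 4, 0.76 to 1.19 in Control and 0.61 to 1.18 in 5-ASA mice. Its differences from Sham were 0.38 and 0.29, each with a standard error of 0.13 (limma adjusted p = 0.561 and 0.437). Cyp2j13 read -1.03, -1.39, -1.63 and -1.50 in the Sham mice, -1.24 to -0.90 in Control and -1.32 to -0.88 in 5-ASA mice. Its differences were 0.29 and 0.28 with a standard error of 0.12 (limma adjusted p = 0.561 and 0.427). A dimmer probe for Cyp2j13 did not follow the brighter one (r = 0.0459 across the mice) and gave -0.22 and -0.28, whereas a second probe for Cyp2j6 did (r = 0.827), with 0.15 and 0.11. Cyp2j9 differed from Sham by -0.25 and -0.03 with a standard error of 0.23.

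Cyp2c29, an arachidonate epoxygenase, was lower in every Control mouse than in any Sham mouse. It read 2.61, 2.77, 2.81 and 2.79 in Sham 1 to 4, and its lowest, median and highest values were 2.07, 2.38 and 2.53 in Control and 1.07, 1.71 and 3.13 in 5-ASA mice. Of the 6 5-ASA mice, 5 lay below all Sham mice, and 5-ASA 4 was the highest of all 16. The difference was -0.41 with a standard error of 0.27 in Control against Sham and -0.89 with 0.27 in 5-ASA against Sham (limma adjusted p = 0.661 and 0.339). Without 5-ASA 4 the latter was -1.14 and was called (limma adjusted p = 0.0107). How many of all genes were called without 5-ASA 4 was not counted.

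The 5 genes that moved with Cyp2c29 also had lower means in 5-ASA than in Sham mice. The differences were -1.0 for Cyp2c39, -0.98 for Cyp2c37, -0.91 for Cyp2c54, -0.84 for Cyp2c67 and -0.76 for Cyp2c68, with standard errors from 0.36 to 0.42 (limma adjusted p = 0.348, 0.418, 0.404, 0.466 and 0.46). Sham 1 and 5-ASA 4 stood against these differences: Cyp2c39 read -2.23, -0.65, -1.19 and -1.45 in Sham 1 to 4, -2.25 to -1.64 in Control mice and -3.22 to -1.11 in 5-ASA mice. Cyp2c37 read -1.94, -0.57, -0.61 and -0.81 in the Sham mice, -1.74 to -1.19 in Control and -3.15 to -0.23 in 5-ASA mice. Its dimmer second probe did not follow (r = -0.20, difference 0.08).

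Cyp2c54 read -1.14, 0.54, 0.31 and 0.05 in Sham 1 to 4, -0.83 to -0.36 in Control and -1.86 to 0.47 in 5-ASA mice. Cyp2c68 read 1.75, 2.76, 2.73 and 3.05, with 2.06 to 2.67 in Control and 0.92 to 3.24 in 5-ASA mice. For these genes too the lowest Sham value was that of Sham 1 and the groups overlapped. Cyp2c65 and Cyp2c66 had higher means in both DSS-treated groups, by 1.29 and 1.27 in Control against Sham with standard errors of 0.68 and 0.67 (limma adjusted p = 0.574 and 0.571). Without Sham 1 these were 2.0 and 1.94, and without Sham 3 both were 0.85.

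Cyp3a13, a Cyp3a gene active in the mouse intestine, read 3.86, 3.11, 3.76 and 3.40 in Sham 1 to 4. Lowest, median and highest values were 2.58, 3.09 and 3.5 in Control and 2.45, 2.97 and 3.47 in 5-ASA mice. Sham 1 and Sham 3 lay above every DSS-treated mouse and the other Sham mice among them. It differed from Sham by -0.52 and -0.56 with a standard error of 0.21 (limma adjusted p = 0.561 and 0.361), and a second probe that followed it (r = 0.900) gave -0.81 and -0.75. Cyp3a11, the liver-type enzyme, read between -3.14 and -1.79 over all mice and differed by -0.19 and 0.07.

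Cyp27a1, a mitochondrial sterol 27-hydroxylase, was lower in all Control mice than in all Sham mice. It read -2.62, -2.32, -1.13 and -2.30 in Sham 1 to 4, -3.45 to -2.75 in Control mice and -4.03 to -1.37 in 5-ASA mice. The difference in Control against Sham was -0.91 with a standard error of 0.39 (limma adjusted p = 0.561), and -0.59 without Sham 3, the highest Sham mouse. Cyp2c29 and Cyp27a1 were the 2 members (3.7%) whose Sham and Control values did not overlap, against 3.31% of all genes.

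An orphan P450 with no settled substrate, Cyp20a1, was the 1 member (1.85%) without overlap between Sham and 5-ASA mice, against 1.8% of all genes. It read -0.42, -0.50, -0.35 and -0.46 in Sham 1 to 4, -0.44 to -0.22 in Control and -0.28 to -0.03 in 5-ASA mice. The difference in 5-ASA against Sham was 0.24 with a standard error of 0.07 (limma adjusted p = 0.339). Its second probe did not follow (r = 0.0781) and gave 0.01. No member was without overlap between Control and 5-ASA mice, against 0.135% of all genes.

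Cyp2w1, an enzyme of fetal gut and colon tumours, was the 1 member with an unadjusted p under 0.05 in 5-ASA against Control. It was above background on 4 of 4 Sham, 4 of 6 Control and 1 of 6 5-ASA arrays, so that most 5-ASA values were background readings. It read -5.05 to -4.23 in Sham, -5.30 to -4.17 in Control and -6.38 to -3.96 in 5-ASA mice. The difference was -0.77 with a standard error of 0.34 (limma adjusted p = 0.999), and 0.03 with normexp background correction, so neither its size nor its direction was settled. Against Sham it was -0.83, and 0.07 with normexp.

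Cyp4f40 read -1.18, -1.01, -1.14 and -1.23 in Sham 1 to 4, -1.22 to -0.55 in Control and -1.05 to -0.59 in 5-ASA mice, a difference of 0.33 with a standard error of 0.12 in 5-ASA against Sham (limma adjusted p = 0.345). Its hydroxylase relative Cyp4f13 read 1.73, 1.69, 1.97 and 1.90 in the Sham mice, 1.30 to 1.77 in Control and 1.24 to 2.14 in 5-ASA mice. For Cyp4f13 the difference in Control against Sham was -0.34 with a standard error of 0.15 (limma adjusted p = 0.561). Cyp4f14, a leukotriene B4 hydroxylase, read 4.73, 4.21, 4.04 and 4.30 in the Sham mice, 4.41 to 4.82 in Control and 3.69 to 5.00 in 5-ASA mice, all 3 groups overlapping.

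Cyp2s1, an epithelial P450 of gut and airway, read 5.45, 4.97, 5.46 and 5.25 in Sham 1 to 4, 4.66 to 5.44 in Control and 4.44 to 5.33 in 5-ASA mice. It differed by -0.40 with a standard error of 0.19 in 5-ASA against Sham (limma adjusted p = 0.456). Cyp2u1, a fatty acid hydroxylase, was among the steadiest members and read 5.06 to 5.60 over all mice, with differences of -0.04 and -0.05 from Sham and a standard error of 0.11. Its probe had no RefSeq match by accession, and a dimmer probe followed it loosely (r = 0.531). Cyp4v3, a fatty acid hydroxylase, read -0.40, 0.24, 0.79 and 0.32 in the Sham mice, -0.51 to -0.01 in Control and -0.94 to 0.57 in 5-ASA mice. Cyp4b1, a P450 of lung and kidney, read -1.27 to -0.09 in Sham, -2.08 to -0.72 in Control and -2.29 to -1.01 in 5-ASA mice, differing from Sham by -0.50 and -0.60 with a standard error of 0.33. Cyp2a4 read -7.00 to -3.68 over all mice. Cyp2t4 read -2.56 to -1.71 in Sham, -1.91 to -1.23 in Control and -1.95 to -1.56 in 5-ASA mice.

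The bright Cyp2d probes did not separate the groups. Cyp2d34 read 5.61, 5.90, 6.63 and 5.93 in Sham 1 to 4, 5.47 to 5.95 in Control and 5.36 to 6.46 in 5-ASA mice. Cyp2d11 read 3.80, 4.44, 5.42 and 4.59, then 3.88 to 4.59 and 3.93 to 5.35 in Control and 5-ASA mice. Of the 9 Cyp2d genes, 8 had lower means in Control than in Sham mice, with a median of -0.33 and no unadjusted p under 0.05, and their size rested on Sham 3. The Cyp2d10 difference was -0.60 with a standard error of 0.40 and that of Cyp2d12, with 2.28, 2.96, 3.98 and 3.01 in the Sham mice, 2.15 to 2.96 in Control and 2.18 to 3.92 in 5-ASA mice, was -0.53 with 0.33. Without Sham 3 these were -0.18 and -0.22, Cyp2d11 went from -0.36 to -0.07 and Cyp2d9 from -0.32 to -0.05, and Cyp2d13 and Cyp2d40 turned to 0.03 and 0.06.

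Among the 6 listed P450 genes of steroid hormone synthesis, Cyp17a1 and Cyp21a1 were measured, while Cyp11a1, Cyp11b1, Cyp11b2 and Cyp19a1 did not pass. Cyp17a1, the 17-hydroxylase, read 1.73, 1.87, 1.71 and 1.33 in Sham 1 to 4, 1.08 to 2.23 in Control and 1.29 to 2.15 in 5-ASA mice. It differed by 0.01 and 0.06 from Sham, with a standard error of 0.24, the first turning to -0.02 with quantile scaling. Cyp21a1, the 21-hydroxylase, read -3.24 to -2.64 in Sham, -3.24 to -2.22 in Control and -3.11 to -2.66 in 5-ASA mice. Neither had an unadjusted p under 0.05, and all 3 comparisons gave overlapping groups.

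Of the 4 vitamin D genes, Cyp2r1, Cyp27a1 and Cyp27b1 were measured, and the catabolic Cyp24a1 was above background on no array. Cyp2r1, the main 25-hydroxylase, read 1.09, 1.14, 0.77 and 0.47 in Sham 1 to 4, 0.07 to 1.1 in Control and 0.29 to 1.04 in 5-ASA mice. A dimmer probe for Cyp2r1 did not follow it (r = 0.153). Cyp27b1, the 1-alpha-hydroxylase, was not well above background on any Sham array and on 5 of the 16 in all. No fold is given for Cyp27b1, whose measured means were -5.60, -5.45 and -5.51 in Sham, Control and 5-ASA mice.

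Of the 3 retinoic acid hydroxylases, Cyp26b1 was measured and Cyp26a1 and Cyp26c1 were above background on no array. Cyp26b1 read 1.94, -0.27, -0.58 and -2.12 in Sham 1 to 4, -0.54 to 0.66 in Control and -1.64 to 1.91 in 5-ASA mice. Sham mice alone covered the full range, and the differences were 0.31 and -0.15 from Sham with a standard error of 0.69. Both changed sign with single mice. The Cyp26b1 difference in Control against Sham was -0.31 without Sham 4, 1.05 without Sham 1 and -0.43 within slide 1, and in 5-ASA against Sham it was 0.58 without Sham 1.

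Of the 6 bile acid and oxysterol genes, 4 were measured, and Cyp7a1 and Cyp8b1, the liver enzymes of the classical route, were above background on no array. Cyp7b1, the oxysterol 7-alpha-hydroxylase, read -2.55, -2.04, -3.25 and -2.31 in Sham 1 to 4, -2.80 to -2.09 in Control and -3.14 to -2.39 in 5-ASA mice. Cyp39a1, which acts on 24-hydroxycholesterol, read 1.60, 1.69, 1.85 and 1.91, then 1.28 to 1.82 in Control and 1.31 to 2.05 in 5-ASA mice. Cyp46a1, the cholesterol 24-hydroxylase, read -3.05 to -2.26 in Sham, -3.18 to -2.18 in Control and -3.38 to -2.22 in 5-ASA mice. Apart from Cyp27a1, none of the 4 had an unadjusted p under 0.05 in any comparison.

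The slide, tested as a term beside the groups after the data were seen, called more members than any treatment. With limma, 12 of the 54 members differed between slides at an adjusted p of 0.05, against 19.8% of all genes. On slide 2, Cyp2c44, Cyp2f2 and Cyp4v3 were higher, by 0.78, 1.68 and 0.51. Cyp2c65 and Cyp2c66 were lower there, by -1.44 and -1.42 (limma adjusted p = 0.0178 and 0.0175), as were Cyp2r1 (-0.66), Cyp46a1 (-0.64), Cyp17a1 (-0.64), Cyp2c38 (-0.55), Cyp4a31 (-0.49), Cyp2u1 (-0.25) and Cyp4a10 (-0.24). On the probes used, the values of Cyp2r1 and Cyp17a1 did not overlap between slides. Each slide held 2 Sham, 3 Control and 3 5-ASA arrays, so slide and group were balanced, and what the slides stand for besides the array is not given in the sources used here.

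Several members followed markers of particular cell types across the mice. All 54 were set against the mean log2 level of 12 marker lists, 648 relations in all, and 20 passed by r after Benjamini-Hochberg adjustment. The share of all genes that would pass was not computed, so these counts cannot be called particular to P450 genes. The permutations did not keep mice within their group or slide. Cyp2e1, an ethanol-oxidising enzyme of liver and fat, read 0.97, 0.68, 1.89 and -4.30 in Sham 1 to 4. It ran from -1.81 to 1.72 in Control and from -5.43 to 1.01 in 5-ASA mice, and a second probe followed it (r = 0.995). Its r with the adipocyte list was 0.986 and its rho 0.941 (permutation test, both with adjusted p = 0.00324), 0.858 and 0.996 within slides 1 and 2, and 0.954 without 5-ASA 6 and Sham 4. Of the 8 adipocyte markers, 7 were measured, and Lep was above background on no array. A list's summed log2 level is the log2 of its genes' scaled signals added together, so the brightest probes weigh most. For the adipocyte list it ran from 4.19 to 6.07 in Sham, 4.23 to 5.65 in Control and 3.93 to 5.48 in 5-ASA mice. The part of this list in the Cyp2e1 values was not tested.

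Cyp4f18, a leukotriene hydroxylase of white blood cells, followed the B cell list. It read -0.67, 1.39, 1.1 and 1.21 in Sham 1 to 4, -0.36 to 2.23 in Control and -0.32 to 0.41 in 5-ASA mice. Sham 2, 3 and 4 and Control 4 stood apart on the B cell list, with means of 0.09 to 1.19 against -3.98 to -1.23 in the others, and these 4 mice also held the highest Cyp4f18 values, at least 1.1 against at most 0.67. Among the other 12 mice r was 0.892 and rho 0.895 (permutation test, unadjusted p = 0.00018 and 0.00026). Both the pair and this split of the mice were chosen after the values were seen, so this is not independent support. All 8 B cell markers were lower in 5-ASA than in Sham mice with an unadjusted p under 0.05 and a median of -2.06, and none was called (limma adjusted p from 0.339 to 0.421). The list's summed log2 level ran from 0.75 to 5.09 in Sham, 0.92 to 5.26 in Control and 0.90 to 1.81 in 5-ASA mice. Its part in the Cyp4f18 difference of -0.78 in 5-ASA against Sham, with a standard error of 0.45, was not tested.

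A total of 8 members ran against the proliferation list, which held markers of dividing cells, and 4 of them passed by rho as well. The matching share of all genes was not computed. The relation was closest for Cyp2c29, with r = -0.836 and rho = -0.874 (permutation test, adjusted p = 0.00756 and 0.00778), -0.838 and -0.805 within slides, and -0.765 without 5-ASA 1 and Sham 3. Cyp4f17 (r = -0.824), Cyp4f13 (-0.805) and Cyp27a1 (-0.775) also passed by rho, at -0.888, -0.824 and -0.726 (permutation test, adjusted p for rho = 0.00324, 0.0115 and 0.0478). Without 5-ASA 1 and Sham 3 these r values were -0.723, -0.73 and -0.574. Cyp2s1 (-0.757), Cyp3a13 (-0.738), Cyp2c37 (-0.734) and Cyp4v3 (-0.733) passed by r alone. All 8 proliferation markers had higher means in 5-ASA than in Sham mice, with a median of 0.97 and 7 at an unadjusted p under 0.05, and none was called by limma. The summed log2 level ran from 4.86 to 5.26 in Sham, 5.37 to 5.99 in Control and 4.98 to 6.51 in 5-ASA mice. Its part in the lower Cyp2c29, Cyp27a1 and Cyp3a13 values was not tested.

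**Figure D5:**
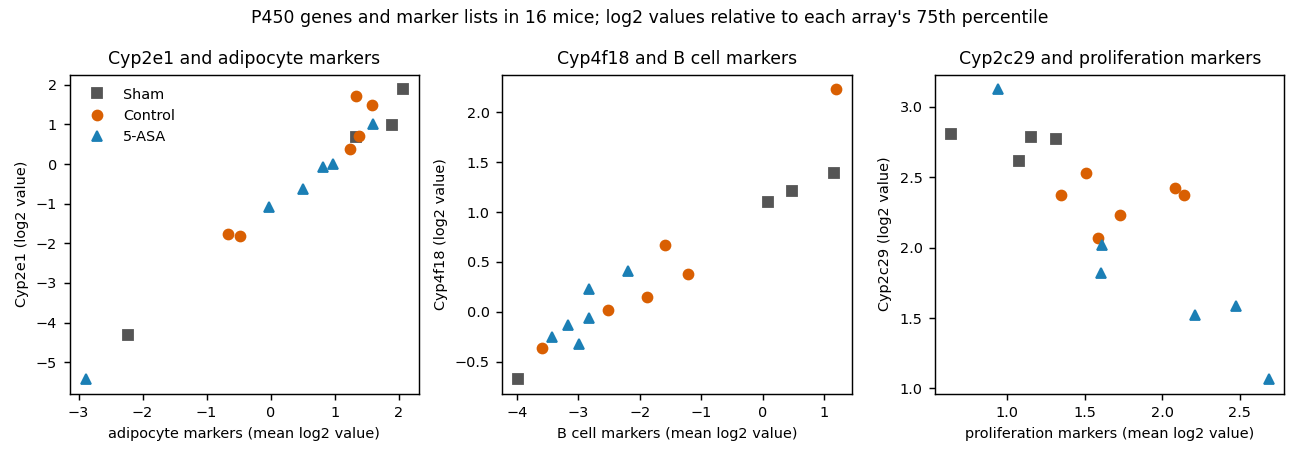
Log2 signal of Cyp2e1 against the mean log2 level of the adipocyte list, Cyp4f18 against the B cell list and Cyp2c29 against the proliferation list in the 16 mice, coloured by group. Cyp2e1 rises with its list (r = 0.986), 4 mice stand apart at the upper right of the B cell panel, and Cyp2c29 falls as the proliferation list rises (r = -0.836).

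Cyp2j9 followed the endothelium list, all 8 of whose markers were measured, with r = 0.895 and rho = 0.859 (permutation test, adjusted p = 0.00324 and 0.00972), and r = 0.78 without 5-ASA 1 and Control 4. Cyp26b1 and Cyp4f14 followed the colonocyte list with r = 0.844 and 0.825 and rho = 0.8 and 0.826 (permutation test, adjusted p for r = 0.00324 and 0.00842), and r = 0.745 and 0.831 without 5-ASA 6 and Sham 1. Cyp2c55 followed the small intestine list with r = 0.796 and rho = 0.832 (permutation test, adjusted p = 0.0081 and 0.0113), and r was 0.86 and 0.561 within slides 1 and 2. The summed log2 level of the endothelium list ran from 3.04 to 3.28 in Sham, 2.85 to 3.39 in Control and 3.07 to 3.33 in 5-ASA mice, and that of the colonocyte list from 9.58 to 9.95, 9.62 to 9.82 and 9.46 to 9.86. For the small intestine list it ran from 2.86 to 3.46 in Sham, 2.82 to 2.98 in Control and 2.54 to 3.13 in 5-ASA mice, with medians of 2.93, 2.88 and 2.66. By that summed level, 5 of the 6 5-ASA mice lay below every Sham and Control mouse. By the mean log2 level, from which r was computed, the groups overlapped. The mean level ran from -1.94 to -1.51 in Sham, -1.87 to -1.37 in Control and -1.95 to -1.58 in 5-ASA mice. Of the 11 listed markers 9 were measured, and Sis, Fabp1 and Lct were above background on 13, 11 and 4 arrays. Of the 9, 8 had lower means in 5-ASA than in Control mice, with no unadjusted p under 0.05. The part of the list in the Cyp2c55 difference of -0.57 in 5-ASA against Control, with a standard error of 0.37, was not tested.

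Cyp2f2, a P450 of lung and liver, followed the liver list with r = 0.812 and rho = 0.9 (permutation test, adjusted p = 0.0103 and 0.00324), and r = 0.767 without Control 4 and Sham 3. Of the 7 liver markers 5 were measured, while Apoa1 and Fgb were above background on 0 and 1 arrays, and the summed log2 level ran from 1.58 to 3.33 in Sham, 1.71 to 2.85 in Control and 1.45 to 2.81 in 5-ASA mice. Cyp2f2 read 0.03, 2.01, 2.86 and 2.18 in Sham 1 to 4, -0.33 to 2.59 in Control and -1.94 to 3.12 in 5-ASA mice, a difference of -1.50 in 5-ASA against Sham with a standard error of 0.81 (limma adjusted p = 0.516). The part of the liver list in that difference was not tested. The remaining passing relations were Cyp2f2 with the macrophage list, Cyp4f18 with the macrophage and liver lists and Cyp2d13 with the liver list, with r from 0.745 to 0.848, and Cyp46a1 with the squamous list. The last (r = 0.747) was 0.545 within slide 1 and 0.187 within slide 2. Both sides lay lower on slide 2. The list's summed log2 level ran from 3.76 to 3.97 on slide 1 and from 3.30 to 3.47 on slide 2. Its mean log2 level, from which r was computed, overlapped between slides, at -1.39 to -0.89 on slide 1 and -1.70 to -1.30 on slide 2. Of the 11 squamous markers 6 were measured, and the part of the slides in the pooled r was not tested.

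No gene of the listed partner pathways was called by limma in any comparison. Of 9 measured genes that pass electrons to P450s, none had an unadjusted p under 0.05 in Control against Sham, and 1 did in 5-ASA against Sham, Cyb5r1 (0.29 with a standard error of 0.10, limma adjusted p = 0.341). Por, the oxidoreductase of all microsomal P450s, differed by -0.32 in 5-ASA against Control. For the 12 genes of haem synthesis and breakdown, 2 in Control against Sham and 3 in 5-ASA against Sham had higher means with an unadjusted p under 0.05. They included Cpox (0.21 and 0.23), a haem synthesis enzyme, and in Control mice Hmox1 (0.44), which breaks haem down.

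Of 16 receptors that drive P450 genes, Rara and Vdr had lower means in both DSS-treated groups, by -0.38 and -0.33 in Control and -0.36 and -0.29 in 5-ASA against Sham (limma adjusted p from 0.341 to 0.561). Of the 19 measured conjugation genes, Gsta4, a glutathione transferase, was 0.74 in Control against Sham and -0.59 in 5-ASA against Control, with standard errors of 0.22 and 0.19 (limma adjusted p = 0.561 and 0.999). Sult1c2, a sulphotransferase, was -0.67 in 5-ASA against Control. Among 16 genes of epoxide and carbonyl handling, 5 had an unadjusted p under 0.05 in 5-ASA against Sham, 4 of them lower, including the carboxylesterases Ces2a (-0.99) and Ces2c (-0.63).

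Of 14 measured retinoid genes, Dhrs9, a retinol dehydrogenase, was 1.17 with a standard error of 0.36 in Control against Sham (limma adjusted p = 0.561), and Rbp2, the retinol-binding protein of enterocytes, was -0.87 in 5-ASA against Sham. None of the 10 measured partners of steroid synthesis had an unadjusted p under 0.05 in any comparison. In cholesterol synthesis, 13 of 15 measured genes had higher means in Control than in Sham mice, with a median of 0.23, against 49.7% of all genes. In 5-ASA against Control, 14 of 15 had lower means, with a median of -0.28, while 49.5% of all genes had higher means. The list's mean log2 level was highest in Control 3 and 4, at 3.17 and 3.10. It was 2.02, 2.31, 2.49 and 2.74 in Control 1, 2, 5 and 6, 2.30 to 2.56 in Sham and 2.13 to 2.59 in 5-ASA mice. Both comparisons use the same 6 Control mice. The unadjusted p was under 0.05 for Fdps (0.47) and Nsdhl (0.49) in the first and for Cyp51 (-0.53), the lanosterol demethylase P450 whose name does not have the form of the members, in the second.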

How the data were processed

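Total RNA from 16 mouse colons (4 Sham, 6 Control, 6 5-ASA) was labelled with Cy3, 0.2 ug each, and hybridised to 1-colour Agilent arrays of 62976 spots, of which 59305 were no controls. Signals were extracted with Agilent Feature Extraction 10.10.1.1, per the file headers, and the deposited intensity values are background-subtracted processed signals. The authors' deposited table holds log2 values that matched the scanner values (r at least 0.992 on each array) centred on each probe's Sham median. Its scale, centring and direction were inferred from that match, and it served as an alternative. The number of arrays limits the precision.

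From the scanner values, log2 of the processed signal minus each array's 75th percentile was taken, spots of a probe were averaged, and each gene was given its brightest probe above background on at least 4 arrays. The 24475 genes were fitted in 1 model of 3 groups with limma 3.58.1 in R 4.3.3, with Benjamini-Hochberg adjustment and a threshold of 0.05. Pearson and Spearman correlations across mice were tested with 100000 two-sided permutations and adjusted within each family. The fit and the correlations were tested on simulated data. The genes described, the gene lists and the tests were chosen with earlier results of these data known. Given by value were the 10 members with the highest mean, the 8 with the smallest p in each comparison, those whose groups did not overlap and those of the steroid, vitamin D, retinoic acid and bile acid lists. Alternatives covered background correction, scaling, filter, probes per gene, slide, slide row, outer spot rows, the replicate block, the samples in the fit and each mouse left out.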

Additional observations from a re-analysis of the deposited data

Results flagged for a closer look

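Single mice stood far from the rest of their group in 12 of 162 combinations of member and group, by Dixon's test of the gap to the nearest mouse. Chance alone flags about 5% of groups. Sham 1 held 3 of the 12: Cyp2c44 at -4.03 (nearest -3.01), Cyp2c67 at 2.67 (nearest 4.09) and Cyp4f18 at -0.67 (nearest 1.1). The mouse 5-ASA 4 held 3 more, all high: Cyp4f13 at 2.14 (nearest 1.46), Cyp4f16 at 1.60 (nearest 0.55) and Cyp4f17 at 1.33 (nearest 0.57). Cyp4f13, Cyp4f16 and Cyp4f17 were the block of genes that moved together, so these 3 values are not separate evidence.

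Control 6 was high for Cyp2d22 at -0.47 (nearest -0.92) and for Cyp2t4 at -1.23 (nearest -1.69). Cyp2d26 read 3.23 in Control 3 (nearest 2.80), Cyp2d40 read -2.84 in Sham 3 (nearest -3.73), and Cyp26b1 read 1.91 in 5-ASA 1 (nearest -0.34). Cyp2e1 read -5.43 in 5-ASA 6 (nearest -1.08), the mouse that was also lowest on the adipocyte list.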

How the results depend on the processing

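No member was called in the main fit, and over 30 alternatives per comparison the count of called members stayed 0 in Control against Sham and in 5-ASA against Control. In 5-ASA against Sham it ranged from 0 to 1 when 1 mouse was left out: Cyp2c29 was called without 5-ASA 4 (limma adjusted p = 0.0107). The smallest adjusted p of any member over these alternatives was 0.159, 0.251 and 0.0107. Unadjusted counts ranged from 1 (within slide 1) to 15 (without Sham 1), from 0 (slide row as a covariate) to 10 (without 5-ASA 4) and from 0 (slide row) to 20 (without 5-ASA 4), against 6, 1 and 12 in the main fit. They were 11, 1 and 18 with the slide as a block and 1, 9 and 10 within slide 1. For these alternatives, the matching counts over all genes were not made. Same-numbered mice of different groups correlated from -0.211 to 0.607 in their deviations from the group mean. Differently numbered mice were not compared, so whether replicate numbers pair the mice was not settled. With the replicate block the called counts were 0, 0 and 0 and the unadjusted counts 10, 2 and 12. The 35 members described in full kept the sign of their difference in 1006, 981 and 1000 of 1042 alternatives per comparison, and 10, 18 and 16 of the 35 changed sign at least once.

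Of the 123 pairs within subfamilies, 56 passed in the main setting, and 47 to 57 under the other 6 settings. The fewest passed without Sham 3 and 5-ASA 4, all 47 of them among the 56.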
